A study of Mus musculus with 10 samples.

Results

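GFP-high and GFP-medium motor neurons differentiated from mouse embryonic stem (ES) cells were compared on Illumina MouseRef-8 bead arrays. The arrays were chosen by sample title: 2 GFP-high and 2 GFP-medium arrays, 4 of the 10 arrays of the series. The cells came from the single ES line V6.5 and carried the Hb9::GFP transgene, in which the promoter of a motor neuron gene drives green fluorescent protein. The other 6 arrays carried the same transgene in C57BL/6 cells: GFP-high and GFP-medium cells of the embryonic spinal cord at E13.5, a mid-gestation embryonic stage (2 arrays a gate), and fibroblasts reprogrammed with 10 transcription factors (1 array a gate). Cells of all groups were sorted by GFP, and their RNA was taken up in Trizol, amplified over successive rounds and labelled with biotin. The labels do not say whether replicates were separate cultures. The p-values thus reflect differences among these particular arrays, which may be technical.

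Hb9, the product of Mnx1, is a homeodomain factor of postmitotic motor neurons, and GFP driven by its promoter is widely used to sort them. Differentiating ES cells pass through a progenitor that carries Olig and Nkx6 factors, then through a short proneural step with Neurog2, and leave the cell cycle before they express cholinergic and synaptic genes. Cultures of this kind also hold undifferentiated cells, dividing progenitors and interneurons. A gate on GFP divides such a culture by reporter level, and in bulk samples fewer cells of a type cannot be told apart from less RNA per cell.

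The replicate arrays were unequal. The mean deposited intensity was 3.16 on GFP-high replicate 1 and 575 on GFP-high replicate 2, against 81.6 on GFP-medium replicate 1 and 577 on GFP-medium replicate 2. At a detection p under 0.01 the GFP-high arrays detected 2095 and 7799 of 25697 probes, and the GFP-medium arrays 7264 and 10041. The replicate 2 pair was therefore described on its own, and replicate 1 was used only for probes detected on both of its arrays: 1559 of 9679 features, or 16.1%. A feature is a gene, measured by its brightest probe, or a probe without a gene name. All levels below are background-corrected, quantile-normalized log2 intensities, and levels of different genes are not compared with each other.

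Replicate 2 of the GFP-high gate also stood apart in a way its mean brightness did not show. Of 4395 features detected on the other 8 arrays (the dim GFP-high replicate 1 set aside), 220, or 5.01%, were not detected there. By the same count GFP-medium replicate 2 lacked 3, and the dimmer GFP-medium replicate 1 lacked 381. The 220 included genes that most cells use, such as Atp5d and Cyc1 of mitochondrial energy production. Their median difference between the replicate 2 arrays was -1.77. Results that rest on this array are given with the replicate 1 values where those could be used. Without the 220 features, 985 of 8091 features were at least 2-fold lower in the replicate 2 pair. The cause of their loss was not tested.

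**Figure D1:**
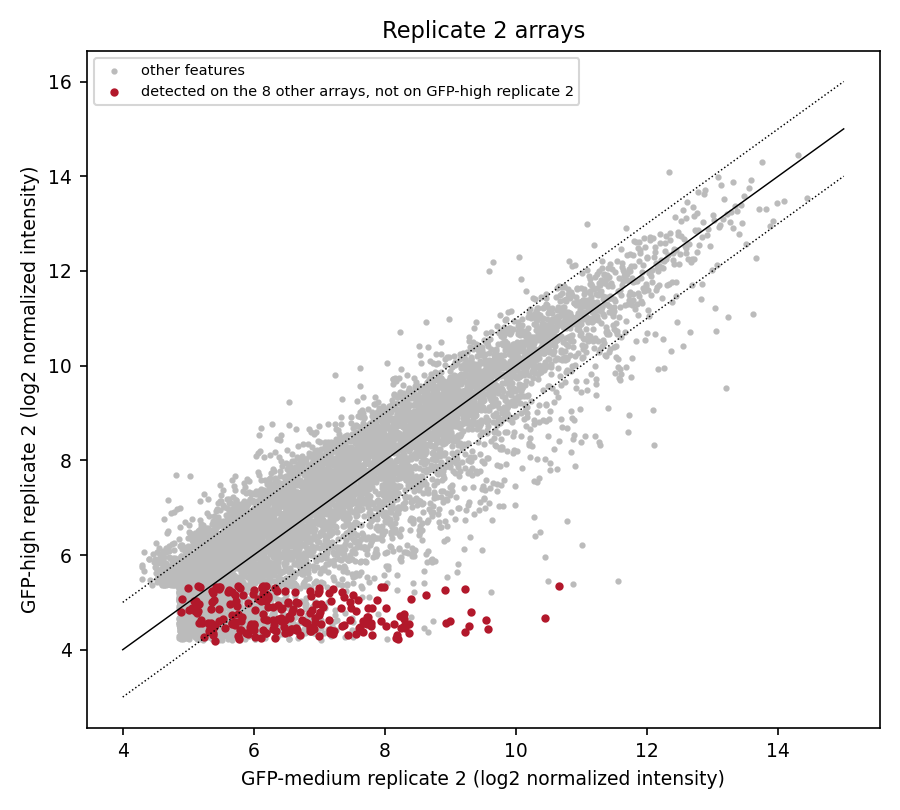
Normalized log2 intensity on GFP-high replicate 2 (vertical) against GFP-medium replicate 2 (horizontal) for the 8311 features detected on at least 1 of these arrays. The solid line marks equal levels, dotted lines 2-fold differences, and red points the 220 features detected on the other 8 arrays but not on GFP-high replicate 2, which lie along the bottom.

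In the replicate 2 pair, the lists with most members at least 2-fold higher were pan-neuronal, axon guidance, and cholinergic and effector genes. In GFP-high cells 7 of 20 (such as Elavl2 and Stmn2), 6 of 20 and 4 of 10 detected members were higher. At least 2-fold lower were 4, 2 and 0 members of these lists. Among genes detected on both arrays, 11 of 19 cell cycle genes and 6 of 11 pluripotency genes stood at least 2-fold lower, Ccnd1 and Nanog among them, and 0 higher. Of 8311 features detected on at least 1 array of the pair, 647 (7.78%) were at least 2-fold higher in GFP-high cells and 1149 (13.8%) at least 2-fold lower. The median difference over all of them was 0.11 on the log2 scale. Of the lower features 589 were not detected in GFP-high cells, which gives only a bound: with each undetected value raised to its bound (the dimmest signal its array detected) 620 (7.46%) were higher and 814 (9.79%) lower. Over the 6363 features detected on both arrays, 579 (9.1%) were higher and 560 (8.8%) lower, so the excess of lower features lay among those not detected in GFP-high cells. At 4-fold, 30 features were higher and 313 lower. Higher features made up 36% of all past 2-fold, but 50.8% over features detected on both arrays, 51.7% at 1.5-fold, 26.7% with an offset of 50 and 15.7% when arrays were scaled by their medians. With 1 array a gate this pair has no replicate check and no test. The features nearest the 2-fold limit were Hps3 (1.0009) and Cxxc4 (1.0013) just inside it and Mindy1 (0.9996) and Tia1 (0.9994) just outside it. On the lower side Fut10 (-1.0001) and Cdc45 (-1.0002) lay just inside and Cc2d1b (-0.9997) just outside.

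No feature passed the test over both pairs. In limma, fitted on the 6 group means of all 10 arrays with replicate 1 values missing where they could not be used, 0 of 9679 features (0%) had an adjusted p under 0.05, and the lowest adjusted p was 0.318 (0.557 among features measured in both pairs). At an unadjusted p under 0.05 there were 638 features (6.59%), 280 higher and 358 lower in GFP-high cells. Among features measured in both pairs these were 236 higher and 33 lower. The other 44 higher and 325 lower were measured in the replicate 2 pair alone, where 1 array stands against 1 and the spread comes from the embryonic arrays and limma's prior, so these p-values hold no replicate of the ES-derived gates. The count depended on single arrays. Leaving out either embryonic GFP-high array leaves 1 in that group and gives the same fit for this contrast, so those 2 alternatives are 1 check. Without GFP-high replicate 2, 311 of 1559 features were called, 282 of them higher, and without embryonic GFP-high replicate 1 or replicate 2 there were 34 each time, 13 higher and 21 lower. All differences below are therefore measured values, with the limma estimate and its SE where both pairs were measured.

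The replicate pairs agreed on what stood higher far more than on what stood lower. Of 117 features at least 2-fold higher in the replicate 2 pair and measurable in replicate 1, 108 (92.3%) were also higher in replicate 1, where 72.6% of all 1559 measurable features were. Of 208 features at least 2-fold lower in the replicate 2 pair, 37 (17.8%) were lower in replicate 1, where 27.3% of all were, and 171 were higher. A gene has to be bright on the dim GFP-high replicate 1 to be measured there, so the features that can be used lean towards higher values in that pair (median difference 0.92). Across the 1559 features Pearson's r between the differences was 0.0321 and Spearman's rho 0.0977. These features share the 4 arrays and are not independent replicates.

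**Figure D2:**
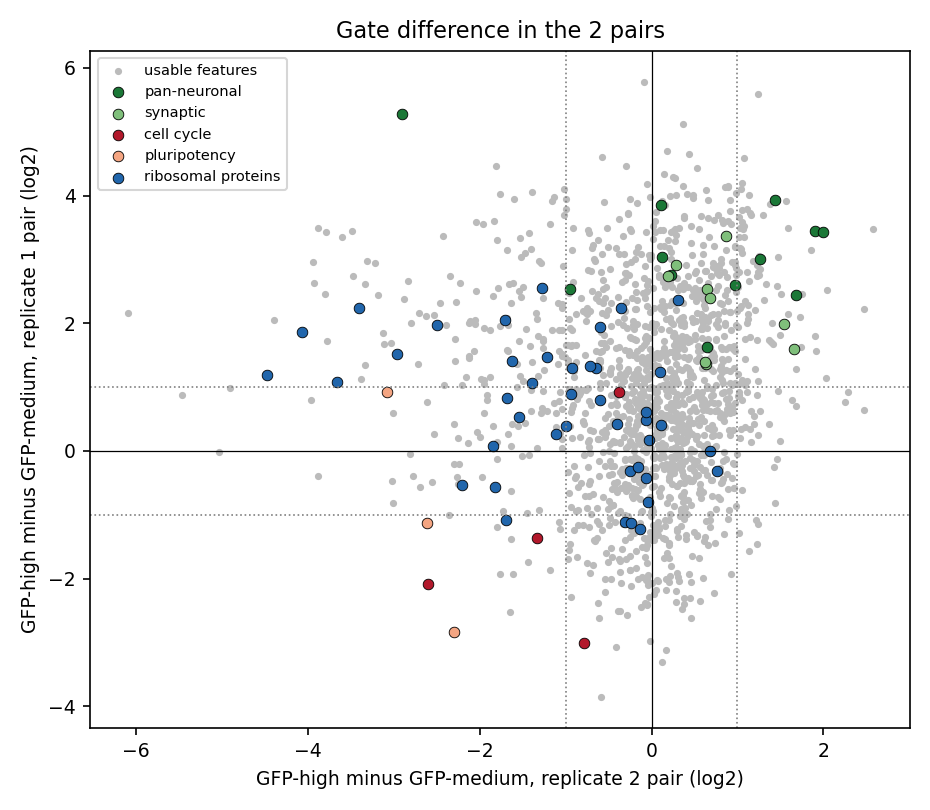
GFP-high minus GFP-medium (log2) in the replicate 1 pair (vertical) against the replicate 2 pair (horizontal) for the 1559 features detected on both replicate 1 arrays. Dotted lines mark 2-fold differences; pan-neuronal and synaptic genes lie above 0 on the vertical axis, Cenpa, Mcm5, Dppa4 and Dppa5a lie at the lower left, and most ribosomal protein genes lie left of 0.

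At least 2-fold higher in both pairs were 83 features, and at least 2-fold lower in both were 15. These are 83 of the 117 measurable features higher in replicate 2, and 15 of the 208 lower. Over all 1559 measurable features, 48% were at least 2-fold higher in replicate 1 and 11.2% at least 2-fold lower. The 83 against 15 is therefore not read as a result about the gates. Where a gene has a difference from each pair, that of replicate 1 stands first. The highest by replicate 2 was Glra2, an inhibitory glycine receptor subunit. Its levels were 10.22 and 8.68 in GFP-high cells (replicates 1 and 2), against 6.75 and 6.11 in GFP-medium cells, and the groups did not overlap. Here and below, genes picked for a 2-fold difference in both pairs lean towards such separation. It is thus a description of the values and not further support. The share of all measurable features without overlap was not counted. The limma difference was 3.02 ± 0.56 (SE, 2 arrays a gate; adjusted p = 0.557).

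Several of the 83 are genes of neuronal maturation. Elavl2, an RNA-binding protein of neurons, had 11.13 and 10.98 in GFP-high cells, against 7.70 and 8.98 in GFP-medium cells (limma 2.71 ± 0.53, adjusted p = 0.557). Its relative Elavl4 had 9.60 and 8.42, against 5.66 and 6.98 in GFP-medium cells. Both GFP-high levels of each gene exceeded both GFP-medium levels. Stmn2, a regulator of microtubules in growing axons, had 12.50 and 12.995 in GFP-high cells, against 9.05 and 11.09 in GFP-medium cells, without overlap (limma 2.68 ± 0.63, adjusted p = 0.557). Ina, a neuronal intermediate filament, differed by 2.44 and 1.68, and Mllt11 by 3.00 and 1.26. Further genes of the 83 were Cbln1, a synapse organizer (1.79 and 1.91), Eef1a2, the translation elongation factor of mature neurons (2.80 and 1.24), and Cadm1, an adhesion molecule (2.45 and 1.51).

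Of the 27 listed pan-neuronal genes, 20 were detected in the replicate 2 pair, 7 at least 2-fold higher and 4 at least 2-fold lower in GFP-high cells. Their median difference was 0.25, beside 0.11 over all features. All 12 that replicate 1 could measure were higher there, with a median of 3.02. The same values over all measurable features were 72.6% and 0.92, and a gene had to be bright in GFP-high cells to count. The 7 were Elavl2, Stmn2, Ina, Elavl4, Gng3, Mllt11 and Nsg1. The 4 lower ones were Crmp1, Stmn3, Uchl1 and Dpysl3, all tied to growing neurites or neuronal proteostasis, and 3 of these were not detected on GFP-high replicate 2. In Dpysl3 the pairs disagreed, with 11.46 and 6.39 in GFP-high cells against 6.18 and 9.30 in GFP-medium cells. The gates overlapped. A second Crmp1 probe gave -0.70 where the probe used gave -3.20, so probes of this gene disagree in size. The neurofilament gene Nefm was level in replicate 2 (0.27), and Tubb3, neuronal tubulin, was not detected on either replicate 2 array.

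The GFP-medium arrays also differed from each other. Over features detected on both GFP-medium arrays, 20.2% were at least 2-fold higher on replicate 1 and 14.5% at least 2-fold lower. Of 13 pan-neuronal genes, 11 were at least 2-fold lower on GFP-medium replicate 1, and of 16 pluripotency genes 15 were at least 2-fold higher. Of 10 proneural and Notch genes 8 were at least 2-fold lower. Nanog, a core pluripotency factor, had 12.36 on GFP-medium replicate 1 and 8.04 on replicate 2. The part of this difference in the larger neuronal values of the replicate 1 pair was not tested.

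Synaptic genes were counted in the same way. Of 26 listed, 16 were detected in the replicate 2 pair, 3 at least 2-fold higher and 2 lower by as much. Over all features these shares were 7.78% and 13.8%. The median was 0.59, beside 0.11 over all features. All 9 that replicate 1 could measure were higher there (median 2.40), where 72.6% of all measurable features were (median 0.92). A gene had to be bright in GFP-high cells to be measured there. Syn1, which tethers synaptic vesicles, had 10.46 and 10.50 in GFP-high cells, against 8.87 and 8.85 in GFP-medium cells. The gap between gates was wider than that within either gate (limma 1.62 ± 0.43, adjusted p = 0.557), and its second probe gave 1.61 in replicate 2. Syn1 is also 1 of the 83 features picked for a difference in both pairs. Cplx1, a complexin that controls vesicle release, had 12.17 and 10.92 in GFP-high cells, against 10.19 and 9.38 in GFP-medium cells, again without overlap. Syp (0.68), Stx1a (0.63) and Vamp2 (0.62), a vesicle protein and 2 fusion proteins, stood below the 2-fold limit in replicate 2 and between 1.36 and 2.40 in replicate 1. The 2 lower genes, Nrxn2 and Syt1, were not detected on GFP-high replicate 2 and were under 2-fold at the bound.

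Cholinergic and effector genes of motor neurons had 10 of 17 listed members detected in the replicate 2 pair, 4 at least 2-fold higher and 0 lower, with a median of 0.41. The shares of all features were 7.78% higher and 13.8% lower. Slc10a4, a transporter of cholinergic vesicles, had 12.005 in GFP-high cells against 9.59 in GFP-medium cells, a 5.35-fold difference. Its near-identical copy Slc10a4l (2.57) may share signal with it. Chat, which makes acetylcholine, had 8.92 in GFP-high cells against 7.32 in GFP-medium cells (3.03-fold). Nrg1, a growth factor that motor neurons supply to Schwann cells and muscle spindles, was 3.92-fold higher, and Mcam, an adhesion molecule, 2.42-fold higher. None of these 4 was detected on both replicate 1 arrays. Agrn, which clusters receptors at the neuromuscular junction, was measured in both pairs and differed in sign (-0.84 and 0.46). Slc18a3, the vesicular acetylcholine transporter, was detected on too few arrays to enter.

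Among axon guidance and adhesion genes, 20 of 31 listed were detected in the replicate 2 pair, 6 at least 2-fold higher and 2 lower, with a median of 0.54. For all features these shares were 7.78% and 13.8%. Slit2, a repellent ligand, had 12.18 in GFP-high cells against 9.65 in GFP-medium cells (5.78-fold). Its receptor Robo1 had 10.40 and 10.01 in GFP-high cells against 9.36 and 8.92 in GFP-medium cells, with no overlap. The semaphorin co-receptor Nrp1 had 10.23 and 10.26 against 6.71 and 9.19. The ephrin receptors divided: Epha5 (1.70) and Epha7 (1.14) were higher, and Epha3 (-1.20) lower, in replicate 2.

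**Figure D3:**
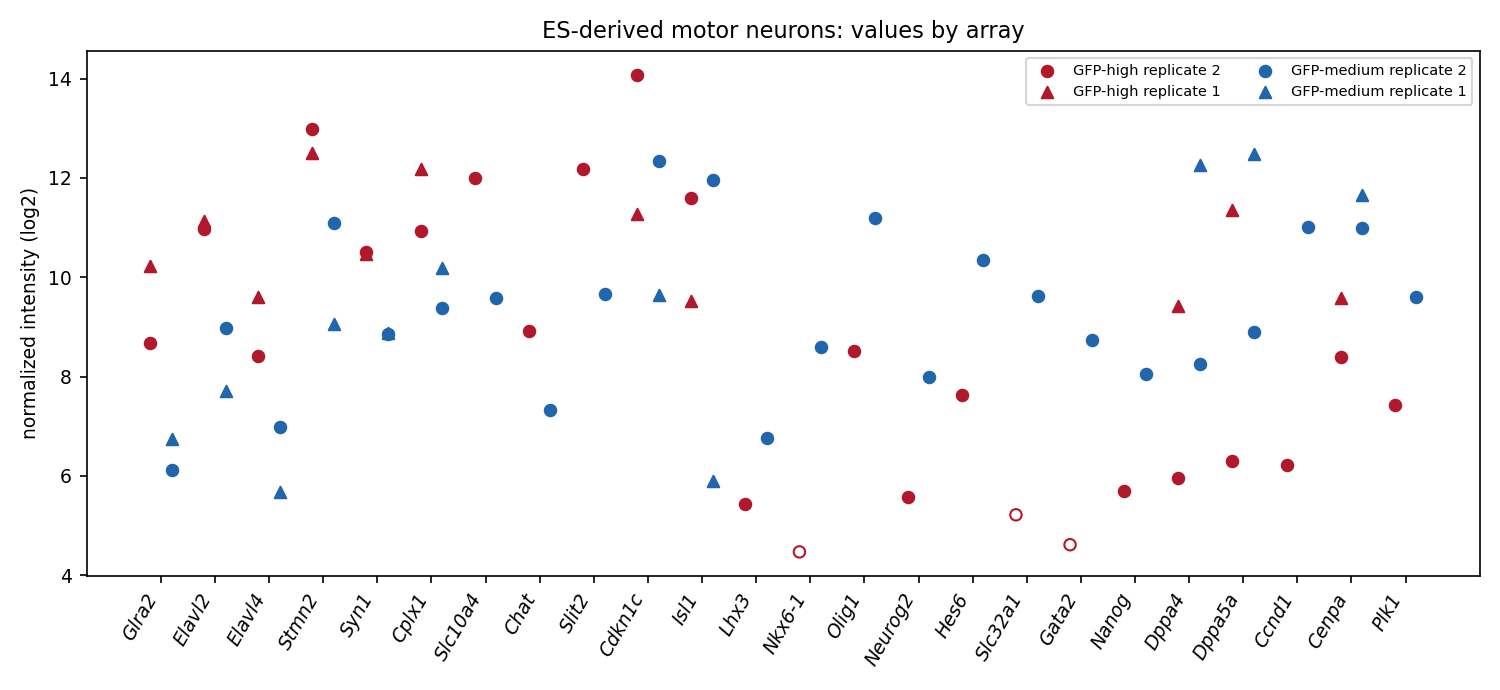
Normalized intensity (log2) of 24 genes on each ES-derived array, GFP-high in red on the left of each gene and GFP-medium in blue on the right. Circles are replicate 2, triangles replicate 1 where both of its arrays detected the probe, and open symbols mark values not detected. GFP-high values lie above GFP-medium values from Glra2 to Slit2, and below them in replicate 2 from Isl1 to Plk1.

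The listed transcription factors of motor neurons did not stand higher as a group in GFP-high cells of the replicate 2 pair. Of 15 listed, 11 were detected there, 1 at least 2-fold higher and 6 lower by that much in GFP-high cells (median -1.29). Over all features 7.78% were higher and 13.8% lower. The list is broad, and Nkx6-1, 1 of the 6, is also counted among the progenitor genes below. Isl1, which with Lhx3 specifies the fate, had 9.53 and 11.59 in GFP-high cells, against 5.90 and 11.97 in GFP-medium cells. The replicate 2 arrays were nearly level for it (-0.38), and the pairs differed in sign. Lhx3, which postmitotic motor neurons of most columns later lose, had 5.43 in GFP-high cells against 6.76 in GFP-medium cells. Isl2, a later factor, was detected in GFP-high cells alone and was at least 2.63-fold higher. Ebf2 (-1.33) and Onecut2 (-1.29) were lower in replicate 2, and Lmo4 differed by 0.38 and -1.56. Isl1 and Lmo4 were the 2 factors replicate 1 could measure, and both were higher there. Over the 8 factors detected on both replicate 2 arrays, 4 were at least 2-fold lower and 0 higher. Mnx1 itself was not detected on any ES-derived array, so the gate could not be checked against the gene whose promoter drives the reporter.

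Of 27 listed progenitor and patterning genes, 10 were detected in the replicate 2 pair, 8 of them in GFP-medium cells alone. Of all 1750 features detected in GFP-medium cells alone 0 were at least 2-fold higher, so the direction of these 8 is not read as a result. By size, 7 of the 10 were at least 2-fold lower, but 3 at the bound, where the median was -0.31. The 2 detected on both arrays were Olig1 and Irx3 (-0.20), which patterns the spinal cord. Nkx6-1, a homeodomain factor that is also among the motor neuron factors, was not detected in GFP-high cells (4.47), against 8.60 in GFP-medium cells, at least 9.38-fold lower. Olig1 had 8.51 in GFP-high cells against 11.20 in GFP-medium cells (6.47-fold lower). Nes, the intermediate filament of neural progenitors, was at least 3.16-fold lower. None of the 10 could be measured in replicate 1.

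Proneural and Notch genes had 15 of 28 detected in the replicate 2 pair, 14 of them on both arrays, 0 at least 2-fold higher and 7 lower, and a median of -0.84. Over all features 7.78% were higher by as much and 13.8% lower. Hes6, which promotes neuronal differentiation, had 7.62 in GFP-high cells against 10.35 in GFP-medium cells. Neurog2, the proneural factor of motor neuron progenitors, had 5.58 in GFP-high cells against 7.99 in GFP-medium cells, but its second probe gave -0.62, under 2-fold. Gadd45g, a growth arrest gene, had 9.96 against 12.26. Notch1 was 3.53-fold lower. Replicate 1 could measure 2 of the 15: Gadd45g was near level (-0.21) and Hey1, a Notch target, differed by 3.98 there and by -1.14 in replicate 2.

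Markers of other spinal neurons had 9 members detected in the replicate 2 pair, 7 of them in GFP-medium cells alone. As for the progenitor genes, the direction of these 7 is not read as a result. By size, 5 of the 9 were lower by 2-fold or more (4 at the bound) and 0 higher by as much. The median was -1.18, and -0.75 at the bound. Both of the 2 markers detected on both arrays were below 0, 1 of them past 2-fold. Slc32a1, the vesicular transporter of GABA and glycine, was not detected in GFP-high cells (5.21), against 9.61 in GFP-medium cells, at least 19-fold lower. Gata2, a factor of V2b interneurons, was at least 10.3-fold lower, and Lhx5 at least 3.01-fold lower. Gad1, which makes GABA, had 6.09 in GFP-high cells against 7.87 in GFP-medium cells. Slc17a6, the glutamate transporter gene, was the single one measured in both pairs, and its sign differed (2.15 and -0.75).

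Most pluripotency genes detected on both replicate 2 arrays were lower in GFP-high cells. Of these 11, 9 were below 0 and 6 at least 2-fold lower, where 2261 and 560 of all 6363 such features were. Of 16 detected in the pair, 14 were below 0 and 2 above. The direction of those detected on 1 array alone is not read as a result. At least 2-fold lower were 11 (8 at the bound) and 0 higher, where 13.8% and 7.78% of all features were. The median was -1.43 (-0.96 at the bound). Nanog had 5.70 in GFP-high cells against 8.04 in GFP-medium cells, and Dnmt3l, a DNA methylation cofactor of germ and ES cells, 6.50 against 8.54. Dppa4, a chromatin protein of pluripotent cells, had 9.42 and 5.95 in GFP-high cells, against 12.26 and 8.24 in GFP-medium cells. It was lower in both pairs, but GFP-high replicate 1 lay above GFP-medium replicate 2. Dppa5a, an RNA-binding protein of ES cells, had 11.35 and 6.29 in GFP-high cells against 12.48 and 8.90 in GFP-medium cells. Its second probe was higher in replicate 1, with 11.85 in GFP-high cells against 11.42 in GFP-medium cells, and gave -3.01 in replicate 2. Pou5f1, the gene of Oct4 (0.58), and Lin28a (0.55) went the other way in replicate 2, higher in GFP-high cells but under 2-fold. Trim28, a corepressor, differed by 0.92 and -3.08.

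Cell cycle genes were lower in nearly every member detected on both replicate 2 arrays. Of these 19, 18 were below 0 and 11 at least 2-fold lower, where 2261 and 560 of all 6363 such features were. Of 43 listed, 30 were detected in the pair and 28 were below 0. The direction of those detected on 1 array alone is not read as a result. Lower by 2-fold or more were 16 (13 at the bound) and 0 higher by as much, where 13.8% and 7.78% of all features were. The median was -1.19, and -0.80 at the bound. Ccnd1, the G1 cyclin D1, had 6.21 in GFP-high cells against 11.01 in GFP-medium cells, 27.8-fold lower, and a second probe gave -4.58. Plk1 (7.42 against 9.60) and Cdca3 (7.12 against 9.44), both active in mitosis, were 4.55-fold and 5-fold lower, and a second Cdca3 probe gave -1.71. Cenpa, the centromeric histone, had 9.57 and 8.40 in GFP-high cells, against 11.66 and 10.99 in GFP-medium cells. It did not overlap between the gates (limma -2.34 ± 0.51, adjusted p = 0.557). Mcm5, of the replicative helicase, differed by -1.37 and -1.33, and Mcm4 by -3.02 and -0.79. Stmn1, which is also abundant in young neurons, was the exception among the 4 measured in replicate 1 (0.92). Cdkn1c, the cell cycle inhibitor p57, went the other way, with 11.27 and 14.08 in GFP-high cells against 9.65 and 12.34 in GFP-medium cells. It was higher within each pair, but the gates overlapped (limma 1.69 ± 0.97).

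The promoters of the cell cycle list are shown for 3 of the lower genes because many of these genes share a pair of short motifs that bind cell cycle regulators. Of 33 measured list members 26 matched a RefSeq promoter (GRCm38.p6), a window that spans the gene start. In these 26, CCAAT occurred on either strand in 21 (80.8%) and TTTGAA, the cell cycle homology region, in 14 (53.8%), and 14 (53.8%) held both. In all 27025 promoters the shares were 37.9%, 18.1% and 7.12%. Among the 13 matched of the 16 genes at least 2-fold lower they were 76.9%, 53.8% and 53.8%, about those of the whole list. In 61 matched genes at least 2-fold higher in both pairs, CCAAT occurred in 36.1% and TTTGAA in 8.20%. Capitals mark both motifs on either strand (ATTGG and TTCAAA are their letters on the opposite strand), in chr5:30666636-30666935 (plus strand) for Cenpa, chr6:124829926-124830225 (plus) for Cdca3 and chr7:122159185-122159484 (plus) for Plk1. A match is a description of these letters and not a binding site.
Cenpa: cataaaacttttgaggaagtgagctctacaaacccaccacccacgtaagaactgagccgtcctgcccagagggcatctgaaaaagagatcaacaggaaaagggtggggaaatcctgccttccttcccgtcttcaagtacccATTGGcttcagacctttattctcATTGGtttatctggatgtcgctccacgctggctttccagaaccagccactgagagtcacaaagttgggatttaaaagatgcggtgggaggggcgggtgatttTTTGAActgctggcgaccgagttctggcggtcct
Cdca3: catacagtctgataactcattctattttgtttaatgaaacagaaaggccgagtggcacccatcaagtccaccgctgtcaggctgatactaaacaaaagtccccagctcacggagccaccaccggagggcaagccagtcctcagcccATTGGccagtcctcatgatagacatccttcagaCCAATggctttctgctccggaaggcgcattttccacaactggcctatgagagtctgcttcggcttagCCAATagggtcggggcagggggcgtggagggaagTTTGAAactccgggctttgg
Plk1: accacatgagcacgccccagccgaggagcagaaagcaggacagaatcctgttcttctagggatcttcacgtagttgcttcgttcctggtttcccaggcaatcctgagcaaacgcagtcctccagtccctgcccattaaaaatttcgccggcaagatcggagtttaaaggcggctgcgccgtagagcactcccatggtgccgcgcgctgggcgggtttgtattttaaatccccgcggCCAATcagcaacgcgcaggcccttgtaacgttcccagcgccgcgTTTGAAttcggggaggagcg

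**Figure D4:**
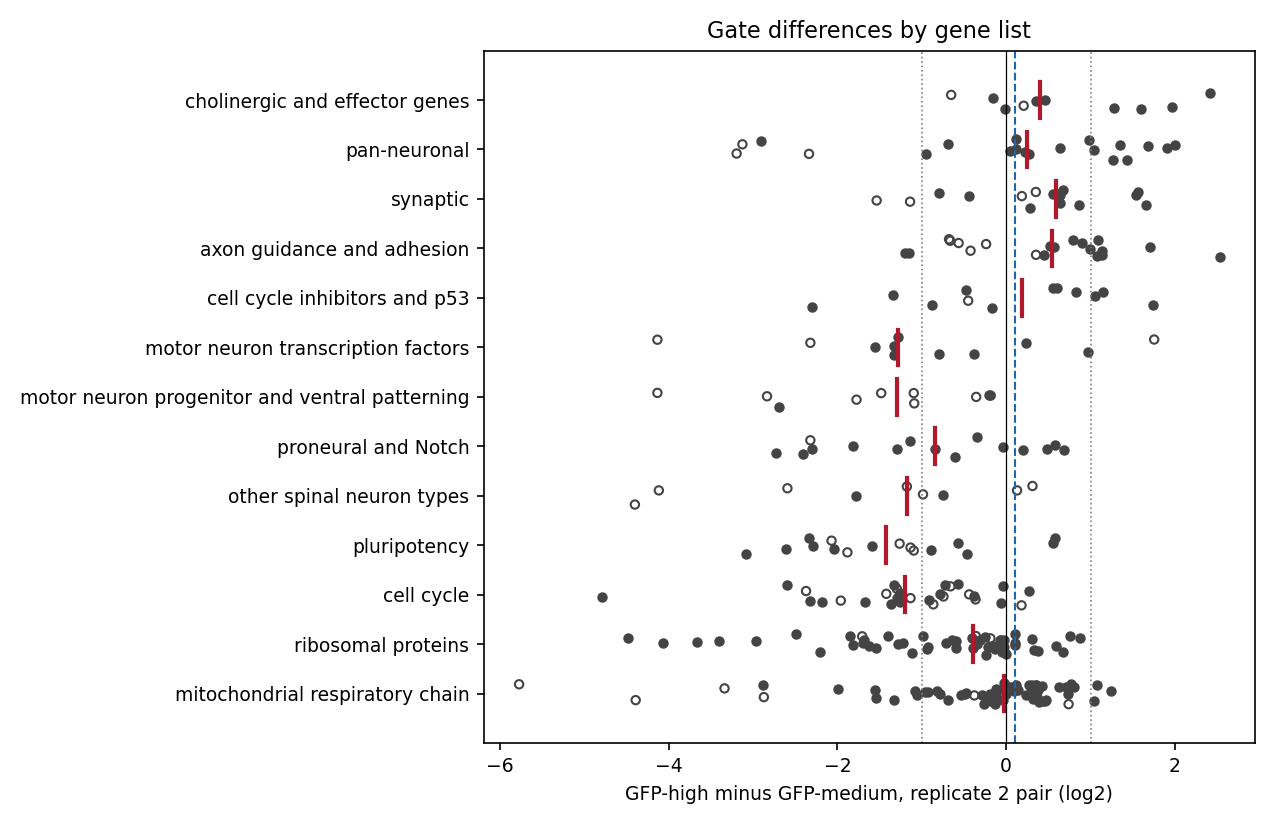
GFP-high minus GFP-medium in the replicate 2 pair (log2) for the detected members of 13 gene lists; open points were detected on 1 array of the pair. Red bars are list medians, the dashed line is the median of all 8311 features (0.11) and dotted lines mark 2-fold. The medians of the pluripotency, cell cycle, progenitor, motor neuron factor and other spinal neuron lists lie left of the -1 line. With undetected values raised to their bound, which is not drawn, these medians were -0.96, -0.80, -0.31, -1.29 and -0.75 in that order.

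Among housekeeping genes, single genes had large differences of opposite sign in the pairs. Of 53 ribosomal protein genes detected in the replicate 2 pair, 18 were at least 2-fold lower and 0 higher (median -0.40), where 13.8% of all features were lower. In replicate 1, 30 of 42 were higher, close to the 72.6% of all measurable features. Rps2 had 12.23 and 5.96 in GFP-high cells, against 11.04 and 10.44 in GFP-medium cells. Rpl27, Rplp1 and Rps7 had the same reversal, between -4.07 and -3.41 in replicate 2 and between 1.07 and 2.23 in replicate 1. Of 64 respiratory chain genes 11 were at least 2-fold lower and 3 higher in replicate 2 (median -0.03), and 32 of 48 were higher in replicate 1, both near the shares of all features. Of 19 glycolysis and hypoxia genes 7 were lower and 2 higher, among them Gapdh, with 13.01 and 10.70 in GFP-high cells against 12.41 and 12.66 in GFP-medium cells. Of the genes named for the largest differences of 1 sign in both pairs, 4 encode histone H2A: H2ac24, H2ac15, H2ac20 and H2ac10 stood between -3.03 and -2.56 in replicate 2 and between -0.82 and -0.40 in replicate 1, and these near-identical copies may share signal.

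Beside Slc10a4l, Slit2 and Slc10a4, the largest differences that replicate 1 could not measure were Phlda1 (2.69), Mfap3l (2.64), S100a10 (2.48), Tnnt1 (2.46) and Rpp25 (2.33) on the higher side. On the lower side, beside Ccnd1 and Slc32a1, they were Atp5g2 (at least 39.1-fold), Atp5d (at least 33.5-fold), Yif1b (at least 18.5-fold), Ufc1 (at least 15.4-fold), Kif2c, a mitotic kinesin (at least 15-fold), and Abhd17a (at least 14.4-fold). These 6 were among the 220 features lost on GFP-high replicate 2, and Ccnd1 and Slc32a1 were not.

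Markers of further cell types were sparse. Of 26 fibroblast and mesenchymal genes 4 were detected in the replicate 2 pair, and 0 were at least 2-fold different. Of 18 blood, endothelial and microglial genes 3 were detected, and the haemoglobin genes Hbb-y and Hba-a1 were not. Of 9 glial genes 2 were at least 2-fold lower, Olig1 and the gap junction gene Gja1. Over all features 13.8% were at least 2-fold lower and 7.78% higher, and the Hox counts that follow stand beside the same shares. Of 12 Hox genes of paralogs 1 to 5, 4 were at least 2-fold lower and 0 higher, Hoxb3 by -1.96, Hoxa4 by -1.39, Hoxc5 by -1.33 (not detected in GFP-high cells) and Hoxb2 by -1.31. Of 7 of paralogs 6 to 13 only Hoxb6 was (-1.79). Motor column markers were near level, with 1 of 11 past 2-fold, Zeb2 (-1.89).

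The gate difference was set against that of embryonic cells, but the embryonic pairs themselves went opposite ways. Chat had 5.30 and 7.94 on the embryonic arrays labelled GFP-high (replicates 1 and 2), against 7.74 and 5.29 on those labelled GFP-medium. Gad1 had 9.34 and 8.43 on those labelled GFP-high, against 4.32 and 9.95 on those labelled GFP-medium. The 4.32 lay under the lowest detected level of its array (5.68), so the size of the replicate 1 difference was not measured. Over 9679 features the embryonic pair differences correlated at r = -0.301, so the embryonic mean difference has no settled direction for such genes. Embryonic GFP-medium replicate 1 was also dim, with a mean deposited intensity of 51.3, against 474, 282 and 352 on the other embryonic arrays. It lacked 368 features detected on the other 8 arrays (ES-derived GFP-high replicate 1 set aside). Whether this array, or an exchange of the gate labels of 1 embryonic pair, lay behind the opposite signs was not tested, and the labels were kept. In limma the ES-derived gate difference minus the embryonic one had 0 of 9679 features (0%) at an adjusted p under 0.05 and 266 (2.75%) at an unadjusted p under 0.05. Without ES-derived GFP-high replicate 2 it had 41 of 1559, and without embryonic GFP-high replicate 2 it had 3. Slc10a4 differed by 2.42 in the ES-derived replicate 2 pair, against -2.86 and 3.58 in the embryonic pairs. Chat differed by 1.60, against -2.45 and 2.65, and Slit2 by 2.53, against -1.38 and 2.07. Slc32a1 differed by -4.40, against 3.34 and -2.90, and Gad1 by -1.78, against 5.02 (with 1 array not detected) and -1.53. For these 5 genes the ES-derived sign was that of embryonic replicate 2 and the opposite of embryonic replicate 1. They were picked as markers, and the share of all features with such signs was not counted, so the match is a description only. Stmn2 was higher in all 4 pairs, by 3.44 and 1.91 in ES-derived cells, against 0.29 and 1.21 in embryonic cells. Cenpa differed by -2.08 and -2.60 in ES-derived cells, against 0.58 and 0.12 in embryonic cells. In the single induced pair Stmn2 differed by 0.57, Chat by 1.12 and Slc32a1 by -0.04.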

How the data were processed

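Linear intensity values of every probe on each array were read from the deposited table; the submitters' processing notes name BeadStudio without a version. Its values below 0 show that background had been subtracted by then. Beside each intensity stands a deposited detection p-value, per the file headers. The authors also provided a table of intensity after their own normalization, made by a method that the sources used here do not state, which served as an alternative. Intensities were corrected with normexp (limma 3.58.1, R 4.3.3; offset 16) and quantile normalized over 10 arrays. Probes with a detection p under 0.01 on 2 or more arrays were kept, the brightest per gene, which gave 9679 features. Symbols came from the platform annotation and were updated to RefSeq, and 1719 of 25697 probes had none. ES-derived replicate 1 values were set missing unless both arrays detected the probe. The limma fit (lmFit, eBayes, two-sided) used 6 group means, with Benjamini-Hochberg adjustment over all features. Where an array did not detect a probe, a fold is a bound against the higher of the probe's value and the lowest detected value of that array. The gate fit was tested on simulated data with the fitted spread. Of simulated features measured in both pairs it recovered 0 of 34 at a log2 change of 1, 9 of 33 at 2 and 30 of 33 at 4. With the replicate 2 pair alone it recovered 0 of 33, 0 of 34 and 32 of 33. Among unchanged features 4 were called. The absence of calls thus does not show that changes of 2-fold or 4-fold were absent. The number of arrays limits the precision.

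The members, gene lists and tests were chosen with earlier results of these data known. Named genes are, by rule, up to 10 in each direction with the largest replicate 2 difference of the same sign in both pairs, up to 8 in each direction not measurable in replicate 1, up to 4 of each list past 2-fold (or 2 by level), and Mnx1, Isl1, Lhx3, Chat, Slc18a3 and Tubb3. Other list members and genes at least 2-fold different in both pairs were chosen after their values were seen. The same-number pairs of arrays share only a number, and no label names a slide or scan.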

Additional observations from a re-analysis of the deposited data

Results flagged for a closer look

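Cenpa and Dppa4 were the 2 of 45 named genes measured in both ES-derived pairs for which both of those pairs were lower in GFP-high cells and both embryonic pairs were higher. Cenpa differed by -2.08 and -2.60 in the ES-derived pairs (replicates 1 and 2), against 0.58 and 0.12 in the embryonic pairs. Dppa4 differed by -2.83 and -2.29, against 0.88 and 0.01, but its embryonic replicate 2 levels (4.30 in GFP-high and 4.29 in GFP-medium cells) lay under the lowest detected levels of those arrays (4.86 and 4.75), so that sign is not a measured difference. The ES-derived gate difference minus the embryonic one was -2.69 for Cenpa and -3.01 for Dppa4, and neither passed the limma test of that difference (adjusted p = 1 for each).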

How the results depend on the processing

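The limma estimates of Glra2, Elavl2, Stmn2, Elavl4, Cenpa, Syn1, Cplx1, Cdkn1c and Dppa4 kept their direction in the alternatives. Each of these genes was at least 2-fold different with the same sign in both pairs, so a turn was unlikely. The limma estimates of other named genes, including those whose pairs disagreed, were not followed in this way. Counts moved. With 1 array left out at a time, features called for the gate ranged between 0 and 311 and for the difference from embryonic cells between 0 and 41; without embryonic GFP-high replicate 2 the second count was 3, and without ES-derived GFP-high replicate 2 it was 41. A lone array in a gate is assumed there to vary like the other groups. In the other alternatives of the limma fits, 0 features were called. In the replicate 2 pair, higher and lower counts were 262 and 718 at an offset of 50, 2051 and 1915 at 1.5-fold, and 30 and 313 at 4-fold. With median scaling, lower features numbered 2378 and higher ones 442. In the authors' normalized table, higher features numbered 1199. Over features detected on both arrays, 579 were higher and 560 lower, which with the 1.5-fold counts turns the excess of lower features. Median scaling took the median difference to -0.29 beside 0.11, and the share of 2-fold features that were higher to 15.7% beside 36%; relative to that median, glycolysis, cholesterol and respiratory chain medians then lay above all features (0.09, 0.11 and 0.27) where they had lain below (-0.32, -0.22 and -0.14), and the medians of the motor column list (-0.20 beside 0.17) and the cell cycle inhibitor list (-0.38 beside 0.19) turned below 0. The share of higher features with the same sign in replicate 1 was 78.0% and of lower ones 28.8% with median scaling (54.5% and 45.5% of all), and 71.8% and 36.5% with replicate 1 centred on its median (50% each of all), an alternative chosen after seeing the data. Without the 220 features not detected on GFP-high replicate 2, also chosen after seeing the data, lower features numbered 985, and the cell cycle, pluripotency and ribosomal lists had 15, 11 and 17 members lower. The arrays share only replicate numbers (deviations correlated at 0.249 over 1559 features), and a replicate block called 0 features, with 627 at an unadjusted p under 0.05. A block for slide or scan was not run because none is named.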
